A study of Mus musculus with 9 samples.

Results

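A set of 10 genes by which fibroblasts are recognised was followed through the ageing of the mouse lacrimal gland, the gland that makes the watery part of tears. The 10 are Pdgfra, Dcn, Lum, Dpt, Pi16, Mfap5 and Ly6a, here called the general fibroblast genes (7), and Fap, Thy1 and Pdpn, here called the immune-type stroma genes (3). They were chosen by name, with earlier results of these data known. As rows of the raw count table they make up 10 of its 54232 genes. All 10 passed the filter on low counts and were among the 14944 genes tested. RNA from whole lacrimal glands of female C57BL/6J mice was sequenced at 2, 12 and 24 months of age, with 3 libraries at each age and no treatment or allele in any group. The mice had free access to food, and the sample titles give the youngest age in weeks (8W). Each library held 40516863 to 42573877 counts. Whether a library stands for a single mouse or for pooled glands is not in the labels, so the p-values measure the spread between these libraries, which may be partly technical.

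Fibroblasts build and maintain the connective tissue that surrounds acini, ducts and vessels. Most carry the PDGF receptor alpha at their surface and secrete decorin and lumican, small leucine-rich proteoglycans that bind collagen fibrils. A subset with Pi16, Dpt and Mfap5 is known from the sheaths of vessels and ducts in many organs. In chronic inflammation and in lymphoid organs, fibroblasts with podoplanin, Thy-1 and fibroblast activation protein form the scaffold on which lymphocytes gather. None of the 3 is restricted to such cells. Podoplanin also marks lymphatic vessels, Thy-1 is abundant on mouse T cells and neurons, and Ly6a (Sca-1) is made by T cells and endothelium as well as by fibroblasts. In bulk RNA, more cells of a type and more RNA per cell cannot be told apart.

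In genome build GRCm38, the build named in the submitters' processing notes, all 10 are protein-coding genes. Pdgfra (ENSMUSG00000029231) lies on chromosome 5 at 75152292 to 75198215, plus strand. Dcn (ENSMUSG00000019929) and Lum (ENSMUSG00000036446) are neighbours on the plus strand of chromosome 10, at 97479609 to 97518143 and 97565128 to 97572703. They are followed on the same strand by their relatives Kera, at 97606879 to 97613692, and Epyc, at 97644068 to 97682454. Dpt (ENSMUSG00000026574) lies on chromosome 1 at 164796644 to 164824266, plus strand, and Pi16 (ENSMUSG00000024011) on chromosome 17 at 29317680 to 29330593, plus strand. Mfap5 (ENSMUSG00000030116) lies on chromosome 6 at 122505845 to 122529290, plus strand. Ly6a (ENSMUSG00000075602) lies on chromosome 15 at 74994877 to 74998031, minus strand. Fap (ENSMUSG00000000392) lies on chromosome 2 at 62500943 to 62574075, minus strand. Thy1 (ENSMUSG00000032011) lies on chromosome 9 at 44043384 to 44048579, plus strand, and Pdpn (ENSMUSG00000028583) on chromosome 4 at 143267431 to 143299564, minus strand. Genes overlapping Pdgfra and Dpt held at most 2 counts in any library, so they could add little to these genes' counts. Pi16 is overlapped on the other strand by AC162182.1, which has no row in the raw count table. The strand setting of the counting is not given in the sources used, so reads of this pair cannot be told apart.

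Promoter windows of RefSeq (build GRCm38.p6) were at hand for 4 of the 10 genes. All 4 are shown. Of these genes, 3 (Pdgfra, Dpt, Pi16) were called higher by 24 months and Pdpn was not called. Whether the change of Pdpn differs from theirs was not tested. Each window runs 5′ to 3′ from 250 bases before the annotated start to 50 bases from the start onwards. Capitals mark matches, on either strand, to 5 sets of letters: TATAAA for the TATA box, CCAAT for the CCAAT box, GGGCGG for the GC box, TGANTCA for AP-1 and GGAATG for TEAD. No match overlapped another.
Pdgfra, chr5:75152001-75152300, plus strand: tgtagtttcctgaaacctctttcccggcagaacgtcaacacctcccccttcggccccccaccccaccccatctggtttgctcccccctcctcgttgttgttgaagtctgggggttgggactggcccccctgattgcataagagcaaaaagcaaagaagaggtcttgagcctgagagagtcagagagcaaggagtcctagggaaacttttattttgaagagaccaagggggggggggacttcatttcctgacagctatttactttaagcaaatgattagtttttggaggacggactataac
Dpt, chr1:164796413-164796712, plus strand: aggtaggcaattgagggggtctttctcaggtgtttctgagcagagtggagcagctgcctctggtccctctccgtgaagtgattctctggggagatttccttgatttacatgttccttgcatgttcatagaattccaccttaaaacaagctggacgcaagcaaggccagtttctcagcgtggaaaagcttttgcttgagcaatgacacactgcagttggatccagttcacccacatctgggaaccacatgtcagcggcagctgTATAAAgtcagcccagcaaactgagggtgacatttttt
Pi16, chr17:29318632-29318931, plus strand: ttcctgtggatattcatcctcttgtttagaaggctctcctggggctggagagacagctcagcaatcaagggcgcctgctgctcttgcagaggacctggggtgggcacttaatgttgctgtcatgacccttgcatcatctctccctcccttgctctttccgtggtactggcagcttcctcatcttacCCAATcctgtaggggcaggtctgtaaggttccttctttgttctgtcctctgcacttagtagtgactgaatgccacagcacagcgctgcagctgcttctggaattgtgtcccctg
Pdpn, chr4:143299515-143299814, minus strand: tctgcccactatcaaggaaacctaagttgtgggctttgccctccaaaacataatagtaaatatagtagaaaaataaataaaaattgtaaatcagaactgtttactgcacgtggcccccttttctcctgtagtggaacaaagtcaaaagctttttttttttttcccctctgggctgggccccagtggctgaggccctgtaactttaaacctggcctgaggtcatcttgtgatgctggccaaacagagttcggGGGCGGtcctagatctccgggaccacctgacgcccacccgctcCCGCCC
The Pi16 window held a CCAAT match 64 bases before the start. This window (29318632 to 29318931) lies wholly within the gene span given above (29317680 to 29330593). The start used for it is therefore not the start of that span. The Dpt window held TATAAA 12 bases after the start, and the Pdpn window held GGGCGG at 1 and at 44 bases after it. Pdgfra had no match, and TGANTCA and GGAATG were found in none of the 4 windows. Over 32851 windows of the same length, CCAAT occurred in 37.4%, GGGCGG in 35.7%, GGAATG in 14.7%, TATAAA in 13.6% and TGANTCA in 7.81%. The 3 genes called higher shared none of the 5 sets of letters in these windows. A match is a description of the letters and not a binding site.

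Some libraries stood apart before any gene was considered. At 24 months, replicate 3 differed from replicates 1 and 2 more than these differed from each other (chi-square per degree of freedom of 207.7 and 207.2 against 86.2, over genes). Of the 10 genes, 8 had their highest value of all 9 libraries in this library, and 7 had their lowest in replicate 2 at 2 months. Salivary gland transcripts summed to 252 to 845 CPM (counts scaled to library size) in 1 library of each age. They were at 71.0 CPM in 2-month replicate 2 and at 0.573 to 7.20 CPM in the remaining libraries. Skeletal muscle transcripts reached 26.2 and 50.1 CPM in 12-month replicates 1 and 3, against at most 1.104 CPM elsewhere. Summed lacrimal acinar markers were at 151918 to 235701 CPM in every library, so the defining transcripts of the labelled tissue were present throughout. Counts of called genes without these libraries follow the main counts. Fits without the 3 libraries holding salivary transcripts left out those at 252 to 845 CPM and kept 2-month replicate 2.

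From 2 to 24 months all 7 general fibroblast genes rose, by 1.58-fold (Dcn) to 4.48-fold (Pi16), and of the immune-type genes Thy1 and Fap rose while Pdpn did not pass the test. At 12 months Thy1 was the only gene of the 10 called higher than at 2 months. Between 12 and 24 months 5 of the 7 general genes rose, a count of 0 without 12-month replicate 1, and Lum and Dpt did not pass the test. Whether the first and the second interval differ was not tested. The test was edgeR's quasi-likelihood test on the raw counts of all 9 libraries, with Benjamini-Hochberg adjustment over 14944 genes and a call at an adjusted p under 0.05. Levels are in CPM after TMM scaling, and differences are in log2 units.

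From 2 to 24 months, 9 of the 10 genes were called higher and none lower, where 9.82% of all tested genes were called higher and 7.56% lower. In all 10, every 24-month library lay above every 2-month library, as in 18.4% of all genes. The same held for 8 of the 10 against 12 months (12.1% of all genes), and at 12 against 2 months for Thy1 alone (15.1%). The median log2 difference of the 10 was 1.47, against 0.01 over all genes. From 2 to 12 months 1 of the 10 was called (Thy1), where 5.41% of all genes were called higher and 2.52% lower, and the median was 0.33 against 0.01. Of the 7 general genes 0 were called in that interval by edgeR, 1 (Ly6a) had an unadjusted p under 0.05, and DESeq2 called the same gene at an adjusted p of 0.0231. From 12 to 24 months 5 of the 10 were called higher, all of them general genes, where 2.79% of all genes were called higher and 1.6% lower. The median of that interval was 0.998 against -0.02. Over the 3 ages together 9 of the 10 differed, where 17% of all genes did, and the exception was Pdpn at an edgeR adjusted p of 0.109. The 3 comparisons share libraries and are not independent of each other. The 10 genes were chosen with earlier results of these data known, so their counts are descriptive.

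With 2-month replicate 2 and 24-month replicate 3 both left out, a setting added after these libraries were seen to hold the extremes, 3 of the 10 were called from 2 to 24 months. These were Ly6a (edgeR adjusted p = 0.0151), Thy1 (0.00422) and Pi16 (0.0396). The log2 differences of all 10 remained above 0, with a median of 1.05. In the same setting 4 of the 10 were called over the 3 ages together and 2 of the 10 from 12 to 24 months. Without the 3 libraries holding salivary transcripts, 0 were called from 2 to 12 months, 6 from 2 to 24 months, 2 from 12 to 24 months and 5 over the 3 ages together. Without the 2 libraries holding muscle transcripts the counts were 2, 8, 0 and 6.

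**Figure D1:**
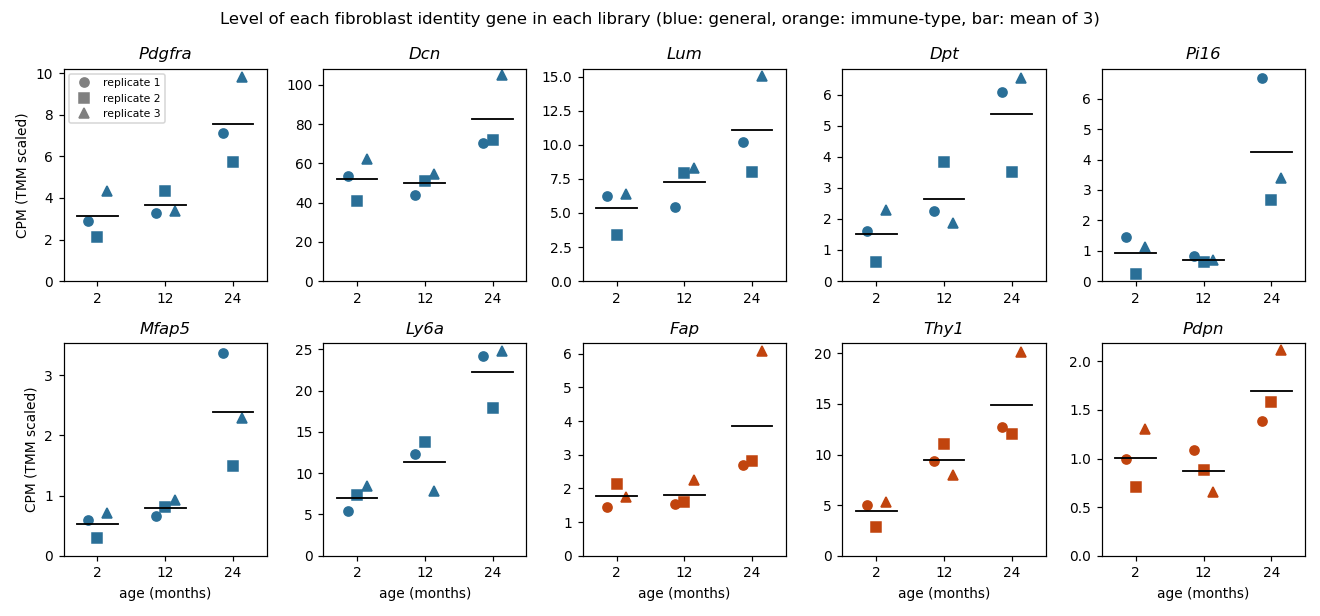
Level of each of the 10 genes in CPM (vertical axes, one panel a gene, each with its own scale) in each library at 2, 12 and 24 months; circle, square and triangle are replicates 1, 2 and 3 and bars are means. All 10 panels have the 3 oldest libraries above the 3 youngest, and in the Thy1 panel the 12-month libraries (7.98 to 11.02 CPM) also lie above the youngest (2.88 to 5.26 CPM).

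Pdgfra, the receptor for PDGF that defines most fibroblasts, was at 2.92, 2.14 and 4.36 CPM in the 3 libraries at 2 months, 3.30, 4.35 and 3.36 CPM at 12 months, and 7.15, 5.75 and 9.85 CPM at 24 months. The 12-month libraries fell inside the range at 2 months, and every 24-month library lay above all others. The means were 3.14 ± 1.12, 3.67 ± 0.592 and 7.58 ± 2.08 CPM (SD, n = 3 each). The log2 difference from 2 to 24 months was 1.27 (SE 0.26, edgeR adjusted p = 0.00787). After 12 months it rose by 1.05 (SE 0.26, edgeR adjusted p = 0.0414). From 2 to 12 months it was 0.23 (SE 0.27, edgeR adjusted p = 0.670).

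Dcn encodes decorin, the collagen-binding proteoglycan, and gave by far the most reads of the general genes. It was at 53.3, 40.9 and 62.0 CPM at 2 months, 43.6, 51.2 and 54.5 CPM at 12 months, and 70.2, 71.8 and 105.1 CPM at 24 months. The first 2 ages overlapped throughout, and the oldest libraries were all above them. The change from 2 to 24 months was the smallest among the general genes, at 0.66 log2 units (SE 0.18, edgeR adjusted p = 0.0245). The difference after 12 months was 0.73 (SE 0.18, edgeR adjusted p = 0.0385).

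Lum encodes lumican, the neighbour and relative of decorin. It was at 6.28, 3.38 and 6.42 CPM at 2 months, 5.47, 7.95 and 8.32 CPM at 12 months, and 10.2, 7.999 and 15.0 CPM at 24 months. One 24-month library (7.999 CPM) lay below the highest 12-month library (8.32 CPM), so these ages overlapped. The log2 difference from 2 to 24 months was 1.05 (SE 0.27, edgeR adjusted p = 0.0223), and that from 12 to 24 months, 0.62, did not pass the test (edgeR adjusted p = 0.237).

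The 3 general genes counted with the vessel-sheath type of fibroblast started low. From 2 to 24 months they had the largest fold changes among the general and immune-type genes. In the same comparison a longer list of vessel-sheath genes had 2 of 11 tested genes called higher, with a median log2 difference of 0.46. Dpt, which encodes dermatopontin, a matrix protein that binds decorin, was at 1.62, 0.617 and 2.29 CPM at 2 months, 2.26, 3.82 and 1.86 CPM at 12 months, and 6.10, 3.51 and 6.54 CPM at 24 months. Its 12-month libraries overlapped with both other ages, and the log2 difference from 2 to 24 months was 1.83 (SE 0.42, edgeR adjusted p = 0.0121). Pi16, which encodes peptidase inhibitor 16, was at 1.45, 0.235 and 1.13 CPM at 2 months, 0.813, 0.634 and 0.682 CPM at 12 months, and 6.68, 2.68 and 3.40 CPM at 24 months. Its lowest 24-month library stood above every younger library, but the 3 oldest libraries also differed widely from each other (4.25 ± 2.13 CPM, SD, n = 3). The log2 difference was 2.16 from 2 to 24 months (SE 0.50, edgeR adjusted p = 0.0134) and 2.58 from 12 to 24 months (SE 0.51, edgeR adjusted p = 0.0150). These values rest on few reads, since Pi16 had 8 to 58 counts per library at 2 and 12 months and 117 to 255 at 24 months.

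Mfap5, which encodes a glycoprotein of the microfibrils around elastic fibres, was at 0.598, 0.294 and 0.707 CPM at 2 months, 0.655, 0.818 and 0.932 CPM at 12 months, and 3.38, 1.49 and 2.30 CPM at 24 months. The oldest libraries stood clear of the other 6, and as for Pi16 the highest was replicate 1, not replicate 3. The log2 difference was 2.15 from 2 to 24 months (SE 0.40, edgeR adjusted p = 0.00504) and 1.57 from 12 to 24 months (SE 0.39, edgeR adjusted p = 0.0408).

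Ly6a encodes Sca-1, a surface protein tethered by a lipid anchor. It was at 5.43, 7.34 and 8.40 CPM at 2 months, 12.3, 13.8 and 7.86 CPM at 12 months, and 24.2, 17.9 and 24.8 CPM at 24 months. At 12 months 2 libraries were above every 2-month library and the third was not. Its rise from 2 to 24 months had the smallest adjusted p of the 10, with a log2 difference of 1.66 (SE 0.22, edgeR adjusted p = 0.000667). The difference after 12 months was 0.98 (SE 0.21, edgeR adjusted p = 0.0210). From 2 to 12 months it was 0.69 (SE 0.22) and missed the threshold (edgeR adjusted p = 0.0729). It passed without 12-month replicate 3 (edgeR adjusted p = 0.0123).

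Among the immune-type genes, Thy1, which encodes a surface glycoprotein of the same lipid-anchored kind, was at 4.98, 2.88 and 5.26 CPM at 2 months, 9.40, 11.02 and 7.98 CPM at 12 months, and 12.7, 12.0 and 20.1 CPM at 24 months. The 3 ages did not overlap. Its log2 difference was 1.11 from 2 to 12 months (SE 0.25, edgeR adjusted p = 0.0175) and 1.77 from 2 to 24 months (SE 0.25, edgeR adjusted p = 0.00101). Between 12 and 24 months it was 0.66 (SE 0.23, edgeR adjusted p = 0.141). The call at 12 months was lost without 2-month replicate 2 (edgeR adjusted p = 0.0705), without 12-month replicate 2 (0.0842) and without the 3 libraries holding salivary transcripts (0.136).

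Fap, a surface protease known from activated fibroblasts, was at 1.45, 2.14 and 1.75 CPM at 2 months, 1.54, 1.59 and 2.25 CPM at 12 months, and 2.70, 2.82 and 6.08 CPM at 24 months. Replicate 3 at 24 months was well above the other libraries of its age, which lay close above the younger ones. The log2 difference from 2 to 24 months was 1.12 (SE 0.33, edgeR adjusted p = 0.0358). The call was lost without 24-month replicate 3 (edgeR adjusted p = 0.193) and without any 1 of the 2-month replicates 1, 2 and 3 (0.101, 0.0702 and 0.101). Between 12 and 24 months the difference was 1.11 (SE 0.33, edgeR adjusted p = 0.0805).

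Pdpn encodes podoplanin, the mucin-like protein of lymphoid stroma, and was at 0.997, 0.705 and 1.30 CPM at 2 months, 1.08, 0.879 and 0.659 CPM at 12 months, and 1.39, 1.58 and 2.11 CPM at 24 months. The first 2 ages overlapped and the oldest libraries lay above both, the lowest of them close to the highest 2-month library. The log2 difference from 2 to 24 months was 0.76 (SE 0.34, 95% interval 0.03 to 1.49) and did not pass the test (edgeR adjusted p = 0.144). Pdpn had 24 to 105 counts per library, and its interval includes the log2 difference of Pdgfra (1.27).

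**Figure D2:**
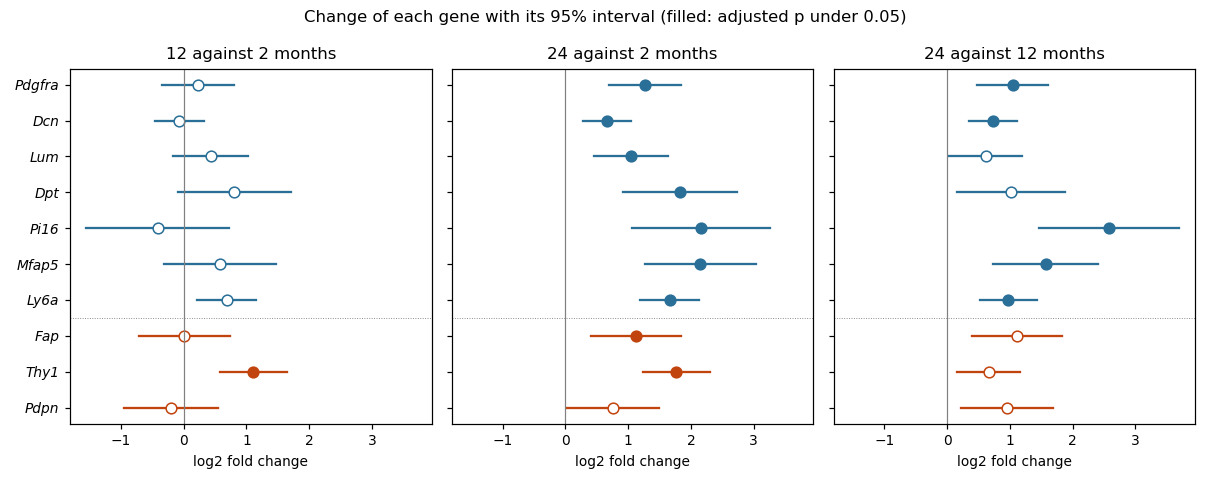
Log2 difference of each gene between ages by edgeR (horizontal axis), with its 95% interval (filled points: adjusted p under 0.05; blue general, orange immune-type), for 12 against 2, 24 against 2 and 24 against 12 months. Differences from 2 to 24 months run from 0.66 (Dcn) to 2.16 (Pi16), and from 2 to 12 months only Thy1 (1.11) passed the threshold.

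Single libraries mattered to several further calls. The call of Dcn from 2 to 24 months was lost without 2-month replicate 1 (edgeR adjusted p = 0.0522), 2-month replicate 2 (0.104) or 24-month replicate 3 (0.0876). That of Lum needed 2-month replicate 2 (0.0846 without it) and 24-month replicate 3 (0.0887 without it). The calls of Pdgfra, Dpt, Pi16, Mfap5, Ly6a and Thy1 from 2 to 24 months held in each of the 9 fits that left out 1 library. Calls from 12 to 24 months were weaker. Pdgfra lost its call without 2-month replicate 1, any 12-month library or 24-month replicate 1 or 3 (edgeR adjusted p of 0.0561 to 0.149). Mfap5 lost it without 2-month replicate 1 or 3, any 12-month library or 24-month replicate 1 or 3 (0.0521 to 0.140). Dcn lost it without 2-month replicate 1, 12-month replicate 1 or 2, or 24-month replicate 3 (0.0552 to 0.141). Ly6a lost it without 12-month replicate 1 or 24-month replicate 1 or 3 (0.0551 to 0.0676), and Pi16 without 12-month replicate 1 or 2 (0.0546 and 0.0582).

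Per kilobase of exon, the scale on which genes can be ranked, Ly6a stood highest at 24 months with 18.5 ± 3.17 CPM per kb (SD, n = 3). Dcn followed at 14.1 ± 3.38 CPM per kb, and the libraries of these genes overlapped (14.9 to 20.6 against 12.0 to 18.0 CPM per kb). Thy1 (4.99 ± 1.51 CPM per kb), Lum (4.53 ± 1.47) and Dpt (3.12 ± 0.952) came next, and each overlapped with its neighbour in this order. Pdpn (0.933 ± 0.207 CPM per kb), Pdgfra (0.756 ± 0.208), Fap (0.683 ± 0.339), Pi16 (0.668 ± 0.335) and Mfap5 (0.665 ± 0.264) formed the lowest group and could not be ranked among themselves beyond their spread. The receptor that defines the cells was thus measured at a lower level per kb (0.574 to 0.982) than decorin, the proteoglycan they secrete.

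Whether the immune-type genes gained on the general ones depended on how the genes were combined. The mean log2 CPM of the 3 immune-type genes minus that of the 7 general genes was -0.88, -0.27 and -0.90 in the 2-month libraries. It was -0.61, -0.90 and -0.77 in the 12-month libraries and -1.56, -0.89 and -0.78 in the 24-month libraries. The means were -0.68 ± 0.36, -0.76 ± 0.15 and -1.08 ± 0.42 (SD, n = 3 each), and the 3 ages overlapped. The genes have different lengths, so only the change of this difference with age can be read, and on this measure, which weights each gene alike, it was no larger than the spread. The difference rests in part on Thy1, since without it the means were -1.24, -1.72 and -1.92 at the 3 ages. Summed CPM, a measure added after these values were seen, gave another picture. The immune-type sum divided by the general sum was 0.104, 0.104 and 0.0975 in the 2-month libraries, 0.176, 0.163 and 0.140 in the 12-month libraries and 0.131, 0.148 and 0.170 in the 24-month libraries, higher at both later ages without overlap. Thy1 made up 50.3% to 81.7% of the immune-type sum and Dcn 54.9% to 74.5% of the general sum. Without Thy1 the ratio of sums was 0.0341 to 0.0519 at 2 months, 0.0300 to 0.0383 at 12 months and 0.0319 to 0.0491 at 24 months, with all ages overlapping. The median log2 difference from 2 to 24 months was 1.66 over the general genes and 1.12 over the immune-type genes. From 2 to 12 months the medians were 0.43 and 0.01, and from 12 to 24 months they were 1.02 and 0.96. In that last interval 0 of the 3 immune-type genes were called by edgeR, all 3 had an unadjusted p under 0.05, and DESeq2 called Fap.

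Against Pdgfra, the immune-type genes did not move alike. For each Pdgfra read there were 1.71, 1.34 and 1.21 Thy1 reads in the 2-month libraries. At 12 months there were 2.85, 2.53 and 2.37, and in the 24-month libraries 1.77, 2.09 and 2.04. The Thy1 ratio was thus highest at 12 months, and the 3 ages did not overlap. Among all genes, 6.07% had a ratio to Pdgfra that was higher at 12 than at 2 months without overlap, 2.51% had one that was higher at 24 than at 2 months, and 73.8% had one that was lower at 24 than at 12 months. The Fap ratio ranged from 0.403 to 1 at 2 months, 0.366 to 0.669 at 12 months and 0.377 to 0.618 at 24 months, with all ages overlapping. The Pdpn ratio was 0.299 to 0.342 at 2 months and 0.194 to 0.275 at 24 months, lower without overlap, as was that of 68.6% of all genes. Dcn reads per Pdgfra read behaved likewise, at 14.2 to 19.1 at 2 months and 9.82 to 12.5 at 24 months.

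**Figure D3:**
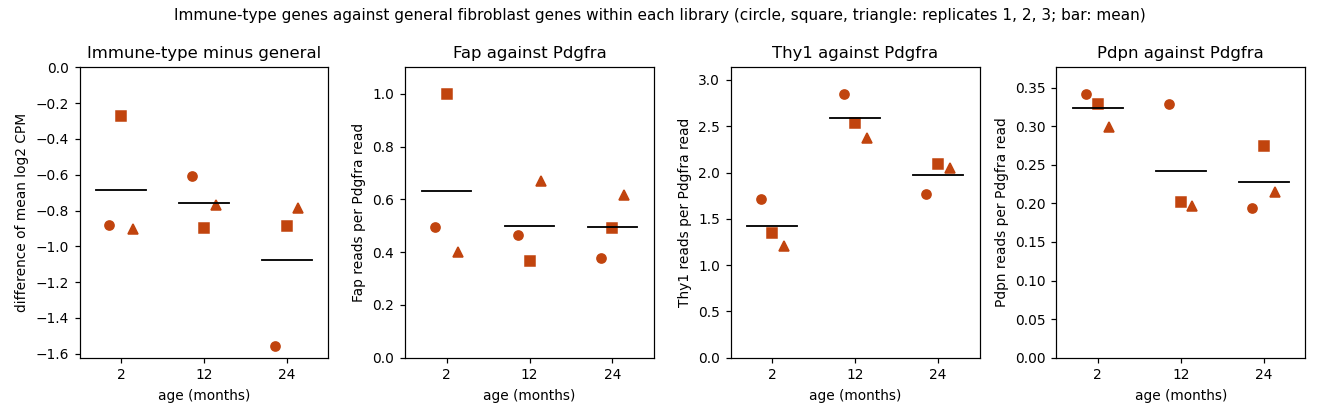
Mean log2 CPM of the 3 immune-type genes minus that of the 7 general genes, and reads of Fap, Thy1 and Pdpn per Pdgfra read, by library and age; circle, square and triangle are replicates 1, 2 and 3 and bars are means. The difference overlaps across ages, whereas Thy1 reads per Pdgfra read are highest at 12 months (2.37 to 2.85).

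Thy1, Ly6a and Pdpn are also made by other cell types, whose markers were read beside them. The 10 T cell markers were all called higher at 12 and at 24 months than at 2 months. Their summed level was 1.05 to 1.82 CPM at 2 months, 29.2, 34.8 and 8.48 CPM in the 12-month libraries, and 11.1, 13.4 and 21.8 CPM in the 24-month libraries. Thy1 and Ly6a were both lowest at 12 months in replicate 3, the 12-month library with the fewest T cell transcripts. So were Dpt (1.86 CPM) and Pdpn (0.659 CPM). In that library both Thy1 (7.98 CPM) and the T cell sum (8.48 CPM) were above every 2-month library. At 24 months Thy1 was higher than at 12 months in each library while the T cell sum was lower than in 12-month replicates 1 and 2. The part of T cells in the Thy1 and Ly6a values was not tested.

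The 6 B cell markers, of cells that gather with T cells in lymphoid follicles, summed to 0.340 to 0.374 CPM at 2 months, 17.0 to 151 CPM at 12 months and 13.5 to 25.3 CPM at 24 months. All 6 were called higher at both later ages than at 2 months. The 6 macrophage markers summed to 50.03 to 74.7 CPM at 2 months, 161 to 219 CPM at 12 months and 214 to 303 CPM at 24 months, with 4 and then 6 of the 6 called higher. Adipocyte markers, all 6 of which were called higher at both later ages, summed to 1.13 to 1.69 CPM at 2 months, 10.1 to 34.7 CPM at 12 months and 9.30 to 29.0 CPM at 24 months. The part of these cells in the values of the 10 genes was not tested. All 3 sums were above their 2-month range at 12 months. So was the sum of the immune-type genes (10.9 to 13.5 against 5.73 to 8.32 CPM), of which Thy1 made up 73.3% to 81.7% at 12 months. From 2 to 12 months Fap and Pdpn differed by 0.01 and -0.20 log2 units and were not called. The sum of the general genes overlapped (68.4 to 82.6 against 54.9 to 85.3 CPM). Blood endothelial markers, which bear on Ly6a, summed to 22.7 to 26.5 CPM at 2 months, 23.6 to 29.1 CPM at 12 months and 27.1 to 34.3 CPM at 24 months. Of the lymphatic markers, which bear on Pdpn, Prox1 and Mmrn1 had 0 counts at 2 months and at most 6 in any older library, and Lyve1 at most 11 in any library. The lymphatic sum of 12.8 to 18.2 CPM was carried by Reln. Of the nerve markers, which bear on Thy1, Snap25 had at most 4 counts in any library, and the sum was 21.1 to 38.4 CPM with overlapping ages.

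**Figure D4:**
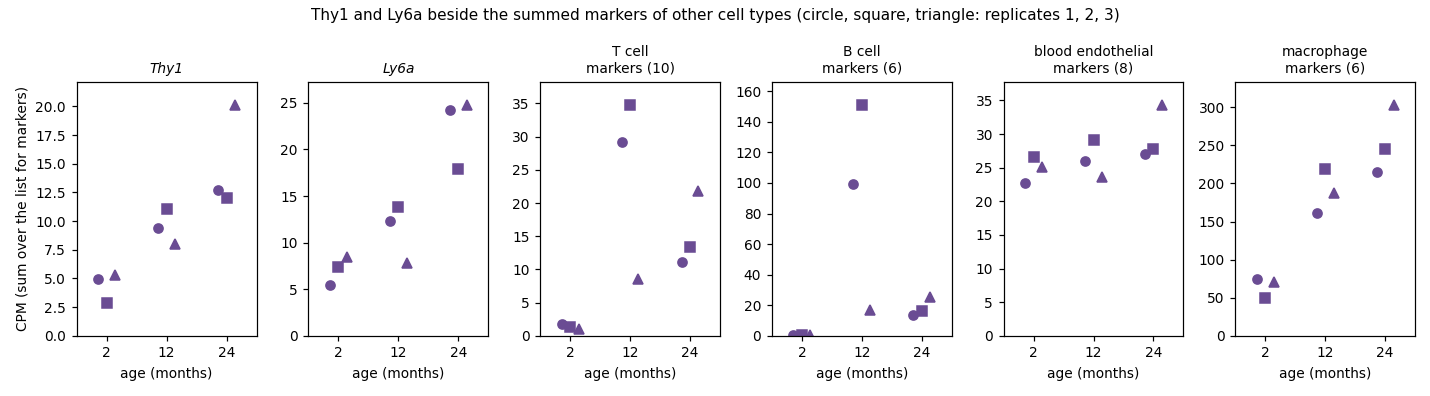
Thy1, Ly6a and summed T cell, B cell, blood endothelial and macrophage markers in CPM (vertical axes, one panel each) by library and age; circle, square and triangle are replicates 1, 2 and 3. T cell markers peak in 12-month replicates 1 and 2 (29.2 and 34.8 CPM), Thy1 in 24-month replicate 3 (20.1 CPM), and endothelial markers stay between 22.7 and 34.3 CPM.

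Related genes were read from 7 further lists of 75 genes, of which 58 were tested. By 24 months 21 of the 58 were called higher and 1 lower than at 2 months, where 9.82% and 7.56% of all genes were. From 2 to 12 months 7 were higher and 3 lower (5.41% and 2.52% of all genes). From 12 to 24 months 14 were higher and none lower (2.79% and 1.6% of all genes). That last count was 3 without 12-month replicate 1, 5 without 12-month replicate 2, 3 without 24-month replicate 3 and 4 without the salivary libraries. Without the 2 muscle libraries 2 were called, 0 of them higher. Without both 2-month replicate 2 and 24-month replicate 3 the count from 2 to 24 months was 8, and without the 3 libraries holding salivary transcripts it was 14. The lists were compiled with results of these data known, so their counts are descriptive. Among other fibroblast genes (16 tested), 9 were higher at 24 than at 2 months and none lower, with a median log2 difference of 0.88. Gsn, which encodes the actin-severing gelsolin, was at 99.2 ± 12.0, 99.3 ± 13.4 and 189 ± 41.4 CPM (SD, n = 3), so it too rose after 12 months (2 to 24 months, log2 difference 0.93, edgeR adjusted p = 0.00339). Scara5, a ferritin receptor of stromal cells, was at 1.12, 2.59 and 4.36 CPM on average (2 to 24 months, 1.95, edgeR adjusted p = 0.00279). Prrx1, a transcription factor of mesenchyme, differed by 1.18 (edgeR adjusted p = 0.00803). These 3 calls held in each fit that left out 1 library.

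Collagen genes on the same list gave mixed results, and they are named here after their values were seen. Col15a1, a basement membrane collagen, was called higher from 2 to 24 months (0.86, edgeR adjusted p = 0.0133), a call lost without 2-month replicate 2 (0.0570) or 24-month replicate 3 (0.0511). Col1a1, a chain of type I collagen, averaged 16.1 ± 5.31 CPM at 2 months, 10.2 ± 1.04 CPM at 12 months and 16.4 ± 4.37 CPM at 24 months (SD, n = 3). Its log2 difference from 2 to 24 months was 0.02 (SE 0.23, edgeR adjusted p = 0.957). Col1a2 (0.50, edgeR adjusted p = 0.232) and Col3a1 (0.25, edgeR adjusted p = 0.535) were not called either. Whether their changes differ from those of the identity genes was not tested. Of the 16 genes of the list, 6 were called higher from 12 to 24 months and 15 had an unadjusted p under 0.05. Sparc, a collagen-binding matrix protein, fell by 0.82 log2 units from 2 to 12 months (edgeR adjusted p = 0.00593). Its mean was 44.1 CPM at 2 months, 25.0 CPM at 12 months and 38.0 CPM at 24 months.

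Of 11 tested genes of adventitial fibroblasts, the vessel-sheath type to which Pi16 and Mfap5 belong, 2 were higher at 24 than at 2 months, with a median log2 difference of 0.46. Cd248, the surface protein endosialin, averaged 0.935 CPM at 2 months, 0.951 CPM at 12 months and 3.28 CPM at 24 months (2 to 24 months, 1.80, edgeR adjusted p = 0.0101). Cd34, a sialomucin of fibroblasts and endothelium, averaged 5.61, 4.98 and 8.98 CPM (0.68, edgeR adjusted p = 0.0232). The call of Cd34 was lost without any one 2-month library or without 24-month replicate 3 (0.0518 to 0.0996), and that of Cd248 held in each such fit. Over all genes 9.82% were called higher in this comparison. Between 12 and 24 months 3 of the 11 were called higher and 8 had an unadjusted p under 0.05, with a median of 0.72.

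Relatives of decorin and lumican moved in part. Of 8 tested small leucine-rich proteoglycan genes, 3 were higher at 24 than at 2 months and 0 lower. Bgn, which encodes biglycan, averaged 26.5 ± 3.76, 27.4 ± 1.18 and 43.1 ± 7.77 CPM (SD, n = 3), with a log2 difference from 2 to 24 months of 0.70 (edgeR adjusted p = 0.00496). Prelp, which links matrix to basement membranes, differed by 0.66 (edgeR adjusted p = 0.00288). Epyc, the cartilage proteoglycan epiphycan that lies beyond Kera in the cluster of Dcn and Lum, had 3 counts in all at 2 months, 31 at 12 months and 87 at 24 months (edgeR adjusted p = 0.00496 for 24 against 2 months). Kera, between Lum and Epyc, averaged 0.156, 0.185 and 0.396 CPM and was not called (edgeR adjusted p = 0.177). The 3 calls held in each fit that left out 1 library.

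Genes of lymphoid reticular stroma, the cells in which podoplanin is best known, were read beside Pdpn. Of 9 tested, 3 were higher at 12 than at 2 months and 4 were higher at 24 than at 2 months. Their median log2 differences were 0.86, 1.26 and 0.44, where those of the general fibroblast genes were 0.43, 1.66 and 1.02. Vcam1, an adhesion molecule for lymphocytes, averaged 1.46 ± 0.386, 4.62 ± 1.24 and 6.26 ± 1.81 CPM (SD, n = 3; 2 to 12 months, 1.66, edgeR adjusted p = 0.00480). Cxcl13, a chemokine for B cells, had 2 counts in all at 2 months and averaged 4.92 CPM at 12 months and 4.95 CPM at 24 months (edgeR adjusted p = 0.000770 for 12 against 2 months). Cxcl12, a chemokine of stroma, averaged 18.5, 28.6 and 44.3 CPM (2 to 24 months, 1.26, edgeR adjusted p = 0.00111). Ccl19, Ccl21a, Il6, Madcam1, Tnfsf11 and Grem1, which are also on this list, had too few counts to be tested. Vcam1 and Cxcl13 were, like Thy1, called at 12 months, and Pdpn and Fap were not. Whether the time courses differ was not tested.

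**Figure D5:**
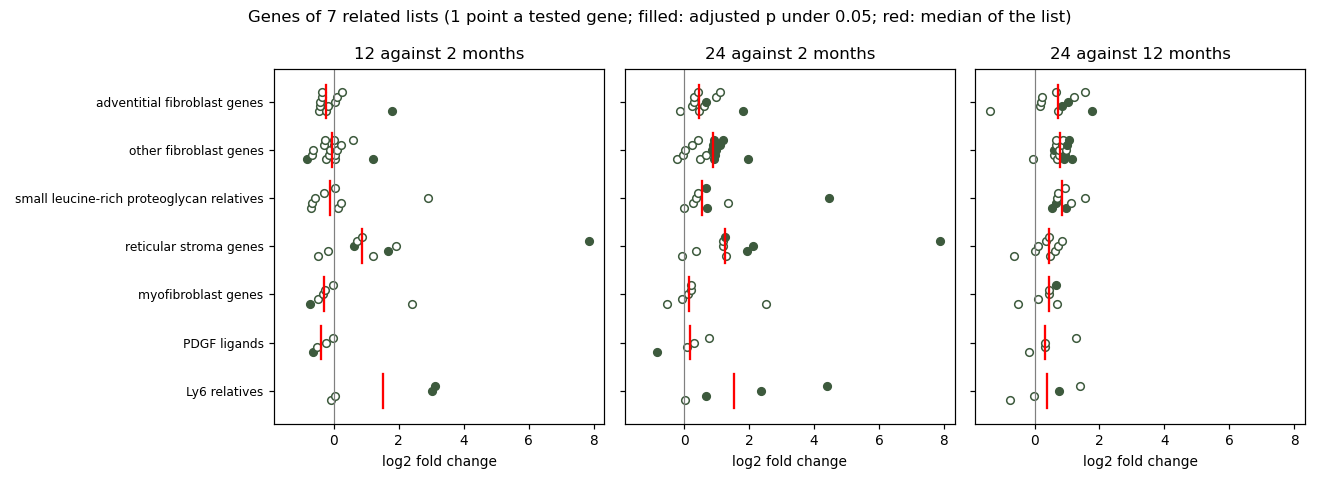
Log2 difference of each tested gene in the 7 related lists (points, filled where the adjusted p was under 0.05) for the 3 comparisons of ages, with list medians as red bars. Reticular stroma genes have medians of 0.86, 1.26 and 0.44 in the panels from left to right. The far points of Cxcl13 and Epyc rest on 2 and 3 counts at 2 months.

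The remaining lists concern the ligands of Pdgfra, contractile stroma and the gene family of Ly6a. Of the 4 PDGF ligands Pdgfa fell, from 23.7 ± 5.81 CPM at 2 months to 15.0 ± 2.02 CPM at 12 months and 13.2 ± 1.96 CPM at 24 months (SD, n = 3; 2 to 24 months, -0.84, edgeR adjusted p = 0.00726). The call was lost with library totals alone (-0.51, edgeR adjusted p = 0.0759), without the salivary libraries (0.0592) and without both 2-month replicate 2 and 24-month replicate 3 (0.0580). Acta2, the smooth-muscle actin of myofibroblasts and also of myoepithelial cells and vessel walls, averaged 83.0, 49.7 and 78.7 CPM, a fall by 12 months (-0.74, edgeR adjusted p = 0.00210) and a rise after it (0.66, edgeR adjusted p = 0.00454). From 2 to 24 months its log2 difference was -0.08 (edgeR adjusted p = 0.670).

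Of 4 tested relatives of Ly6a, 3 were higher at 24 than at 2 months. Ly6c2, known from monocytes, averaged 0.250, 2.02 and 5.31 CPM (4.405, edgeR adjusted p = 0.000185), and Ly6d, known from B-lineage and epithelial cells, 0.906, 7.79 and 4.63 CPM (2.36, edgeR adjusted p = 0.00930). Ly6c1 differed by 0.68 (edgeR adjusted p = 0.0243), a call lost without 2-month replicate 2 or 3 or 24-month replicate 3 (0.0704 to 0.0974). Some genes of this family have near-identical copies, so reads of such genes may not be assigned with certainty. How this bears on Ly6a, Ly6c1 and Ly6c2 was not tested. Ly6e was at 1517 ± 139 CPM at 24 months (SD, n = 3) and was not called (0.02, edgeR adjusted p = 0.947).

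The genes nearest in pattern to 4 of the 10 were sought among 9599 protein-coding genes, by the root mean square difference of centred log2 CPM over the 9 libraries. Nearest to Pdgfra were Mmp3 (0.14), Adcyap1r1 (0.16), Fst (0.18), Cxcl14 (0.20) and Tmem119 (0.20). Nearest to Thy1 were Myo1f (0.16), Serping1 (0.18), Cfp (0.19), Lipa (0.19) and C1s1 (0.20). Nearest to Fap were Fam213a (0.20), Slc16a11 (0.20), Sned1 (0.22), Nfasc (0.25) and Pltp (0.25). Nearest to Pdpn were Col6a2 (0.19), Dab2 (0.19), Cfap298 (0.19), Fam129a (0.19) and Eya2 (0.22). The 4 lists of nearest genes did not share a gene. The distance from Pdgfra itself was 0.26 to Lum, 0.31 to Dcn, 0.33 to Pdpn, 0.35 to Ly6a and 0.39 to Thy1. It was 0.43 to Dpt, 0.43 to Fap, 0.45 to Mfap5 and 0.84 to Pi16. The distance grows with the size of a gene's change as well as with a different course, so it does not tell these apart.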

How the data were processed

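Total RNA of whole lacrimal glands was sequenced as paired reads at a sequencing service, per the labels' protocols. The authors deposited raw counts per gene, and a second table of log2 values that equals log2 of the count divided by a size factor, plus 1 (100% of values within 1e-06). Only the counts were used for tests. Per the submitters' processing notes the tools were cutadapt, FastQC, STAR, HTSeq and DESeq2, with build GRCm38. Tool versions, annotation release and strand setting: not given in the sources used here. Symbols for 54079 of 54232 identifiers came from a GENCODE M21 table, and 153 had none.

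Genes were filtered with filterByExpr (minimum count 10), scaled by TMM and tested by quasi-likelihood in edgeR 4.0.16 under R 4.3.3 (1 model of 3 ages over 9 libraries, 6 residual degrees of freedom, Benjamini-Hochberg over 14944 genes, call under 0.05). The common coefficient of variation was 21.2%. Alternatives were other scalings, filters, DESeq2 1.42.0, limma 3.58.1 (voom), a replicate block and left-out libraries. On simulated data with 200 changed genes, the fit recovered 39% of changes of 1 log2 unit and 75% of changes of 2 log2 units for 24 against 2 months. Of 126 genes called in that comparison, 12 were false. Replicates of an age differed by more than sampling noise, and each library was treated as 1 sample. That difference does not show whether the libraries stand for separate mice.

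The members and gene lists were chosen with earlier results of these data known. All members are named. Of each related list up to 3 called genes with the smallest p per comparison are named, with genes not tested or discussed as not called. Promoter windows came from RefSeq tables and were searched for fixed letters. Python 3.11.15 drew the figures.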

Additional observations from a re-analysis of the deposited data

How the results depend on the processing

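On simulated counts with 3 libraries an age, 39% to 43% of changes of 1 log2 unit were recovered, over all count levels. False calls were 7 of 128 for 12 against 2 months, 12 of 126 for 24 against 2 months and 12 of 130 for 24 against 12 months. Counts of called genes from 12 to 24 months changed under more of the alternatives than those from 2 to 24 months. From 2 to 12 months, 1 of the 10 identity genes was called, against 2 with library totals alone, 3 with no count filter, 2 with DESeq2, 0 without the 3 libraries with salivary transcripts, 2 without the 2 with muscle transcripts and 0 at an adjusted p under 0.01. Leaving out 1 library gave 0 to 2. From 2 to 24 months the count of 9 went to 4 at 0.01 and to 3 without the lowest and the highest library, and leaving out 1 library gave 6 to 9. From 12 to 24 months the count of 5 went to 1 with library totals alone, 9 with no count filter, 3 with voom, 2 without the salivary libraries, 0 without the muscle libraries, 0 at 0.01 and 2 without the lowest and the highest library, and leaving out 1 library gave 0 to 5. For the 3 ages together the count of 9 went to 5 without the salivary libraries, 4 at 0.01 and 4 without the lowest and the highest library, and leaving out 1 library gave 5 to 9. The cause was not tested.

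Immune-type minus general genes, in mean log2 CPM, became -1.24, -1.72 and -1.92 at 2, 12 and 24 months without Thy1, and -0.53 at 12 months without Ly6a. As the log2 ratio of summed CPM, added after seeing the data, it was -3.30, -2.65 and -2.75. Without 1 library the difference in mean log2 CPM ranged from -0.89 to -0.58, -0.84 to -0.69 and -1.22 to -0.84 at the 3 ages.

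Of the related genes, 10 were called from 2 to 12 months, against 17 with no filter, 16 with DESeq2, 4 with voom, 2 without the salivary libraries and 6 at 0.01 (6 to 10 leaving out 1 library). From 2 to 24 months, 22 went to 14 without the salivary libraries, 13 at 0.01 and 8 without the lowest and the highest library (14 to 24 leaving out 1 library). From 12 to 24 months, 14 went to 2 with library totals, 30 with no filter, 25 with DESeq2, 8 with only the libraries compared, 4 without the salivary libraries, 2 without the muscle libraries, 2 at 0.01 and 6 without the lowest and the highest library (3 to 17 leaving out 1 library).

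Library totals alone moved the median of all genes to 0.31 in both comparisons with 2 months and to -0.02 from 12 to 24 months. The medians of the 10 genes were then 0.63, 1.78 and 0.99. The shares of all genes called higher and lower became 10.8% and 0.535% from 2 to 12 months, 17.6% and 1.28% from 2 to 24 months, and 1.35% and 0.923% from 12 to 24 months. Over all genes 1185 were called from 2 to 12 months (127 to 2026 over the alternatives), 2597 from 2 to 24 months (624 to 3148) and 656 from 12 to 24 months (132 to 1486). The labels do not say whether replicate numbers pair the libraries. Correlations ran from -0.15 to 0.06 between equal numbers and from -0.19 to 0.23 between unequal numbers. These overlapping ranges cannot decide it. With replicate number as a block, 1 of the 10 genes was called from 2 to 12 months and 9 from 2 to 24 months. The counts were 2 from 12 to 24 months and 8 over the 3 ages. No called difference of a member or related gene changed sign in any alternative.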
